A study of Mus musculus with 24 samples.

Results

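The question asked here is which genes responded differently to loss of Wt1, the zinc finger transcription factor of the nephron lineage, at an early and at a later stage of kidney development. RNA of whole kidneys from E18.5 mouse embryos was measured on single-colour Illumina bead arrays, and 12 of the 24 arrays of the study were used. They fall into 4 groups of 3 embryos and 2 sets of 6 arrays. In the first set, Nes-Cre Wt1 co/co kidneys, homozygous for a conditional Wt1 allele and carrying Cre under Nestin control, were compared with Wt1 co/co kidneys, which carry the same conditional allele and no Cre. In the second set, Wnt4 +/CreGFP Wt1 co/co kidneys, homozygous for the conditional allele and carrying a Cre-GFP fusion in 1 copy of Wnt4, were compared with Wnt4 +/CreGFP kidneys, which carry the same Cre allele and wild-type Wt1. The difference of effects is the log2 change of the Nes-Cre mutant minus the log2 change of the Wnt4 mutant. It was estimated for the 9570 of 17951 genes that at least 3 of the 12 arrays detected (detection p under 0.01), and it was then estimated again without Nes-Cre Wt1 co/co replicate 1. A difference was called at an adjusted p under 0.05 (limma with Benjamini-Hochberg adjustment), which gave 33 genes with all 12 arrays and 287 without that replicate.

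Nephrons form when cap mesenchyme, the progenitor cells around the tips of the ureteric bud, condenses and turns into epithelium. The resulting renal vesicle passes through the comma- and S-shaped bodies and becomes podocytes and the tubule segments from proximal to distal, while the bud itself gives the collecting duct. Wt1 is expressed in the mesenchyme and, later, most strongly in podocytes. Nes-Cre acts in the uninduced mesenchyme, although the study describes its action as incomplete, and Wnt4 CreGFP acts from the pretubular aggregate onwards, so that the first mutant loses Wt1 before the transition to epithelium and the second during it. All 12 embryos were taken at the same age, the strain is labelled C57BL/6, and the methods describe a mixed background of C57BL/6 and another strain. The controls are not alike. The Wnt4 mutant differs from its control in the Wt1 allele together with the chromosome 2 segment that travels with it, and the Nes-Cre mutant does not. The Nes-Cre mutant differs from its control in the Cre transgene, and the Wnt4 mutant does not. Wt1 itself was not analysed here. In whole-kidney RNA, fewer cells of a type and less RNA per cell cannot be told apart.

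One array stood apart. Nes-Cre Wt1 co/co replicate 1 correlated with the other 11 arrays at r = 0.852 to 0.894 across genes, whereas the others correlated with each other at 0.949 to 0.994, and the first principal component, with 49.98% of the variance, separated it from the rest. The mean level of 18 striated muscle genes was 9.29 on the log2 scale in that array, 6.77 and 6.76 in replicates 2 and 3, and 5.91 to 6.29 in the other 9 arrays. The mean level of 28 proximal tubule metabolism genes was 5.64 in that array and 7.11 and 7.56 in replicates 2 and 3, against 8.39, 8.00 and 8.31 in their controls, although single genes of the tubule stayed well above background in it. The methods leave out 1 Nes-Cre Wt1 co/co sample after quality control without saying which, so results are given with and without replicate 1. Replicate 3 of the same group had a high level of liver and plasma protein genes, with a list mean of 6.36, 6.25 and 9.17 in the 3 Nes-Cre mutant arrays, 6.62, 6.75 and 6.71 in their controls and 5.58, 5.44 and 5.65 in the Wnt4 mutants. Background intensity was 48.1 to 59.8 and 8216 to 9414 genes were detected per array. Of the values over level 7, 2.12% carried a detection p of 0.01 or more. They came from 348 genes, so that a gene with a high level can count as not detected.

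**Figure D1:**
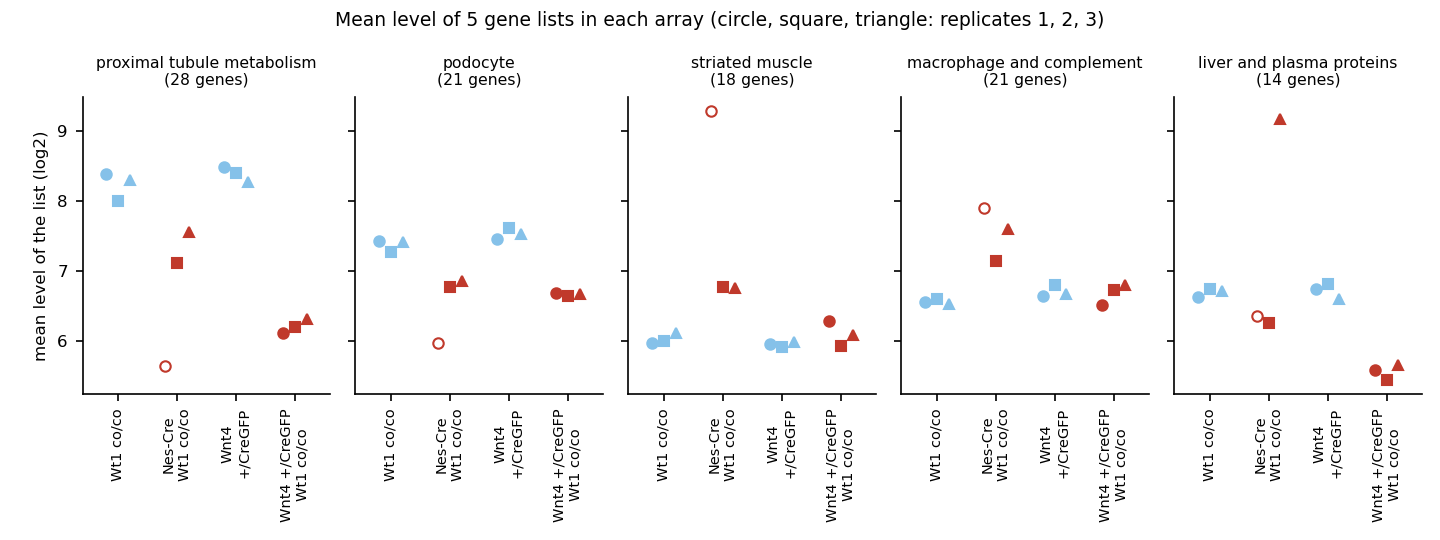
Mean normalized level (log2, vertical axis) of 5 gene lists in each of the 12 arrays, by group, with 1 point per array and replicates 1, 2 and 3 as circle, square and triangle (the open circle is Nes-Cre Wt1 co/co replicate 1). The open circle lies below all other arrays for the proximal tubule and podocyte lists and above them for the muscle list, and the triangle of the Nes-Cre mutants, at 9.17, lies above all other arrays for the liver list.

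With all 12 arrays the 2 effects differed in 33 of 9570 genes (0.345%), with 26 above 0 (0.272%) and 7 below 0 (0.0731%). A difference above 0 means that the gene was higher after Nes-Cre deletion than after Wnt4 CreGFP deletion, each relative to its own control. For comparison, 1586 genes (16.6%) changed in the Nes-Cre mutant and 941 (9.83%) in the Wnt4 mutant, with 7.23% of genes up and 9.34% down in the first and 3.83% up and 6.00% down in the second. This split depended on the scaling. With 75th percentile scaling 729 of 1646 changed genes rose in the Nes-Cre and 563 of 973 in the Wnt4 mutant, and 96 of 1678 and 31 of 746 rose in the ratio table of the authors, against 692 of 1586 and 367 of 941 here. Of the 33, 17 had a called change in the Wnt4 mutant only, 8 in the Nes-Cre mutant only, 5 in both in opposite directions and 3 in both in the same direction. Without replicate 1 the 2 effects differed in 287 genes (3.00%), with 197 above 0 (2.06%) and 90 below 0 (0.940%), or 76 of 130 above 0 with 75th percentile scaling and 27 of 29 in the ratio table, while 2716 (28.4%) and 2747 genes (28.7%) changed in the Nes-Cre and Wnt4 mutants, 14.6% up and 13.7% down against 15.3% up and 13.4% down. All 33 were among the 287 in the same direction. Of the 287, 93 changed in the Wnt4 mutant only, 92 in the Nes-Cre mutant only, 72 in both in the same direction and 30 in both in opposite directions. The median standard error of a difference was 0.205 with all arrays and 0.168 without replicate 1.

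**Figure D2:**
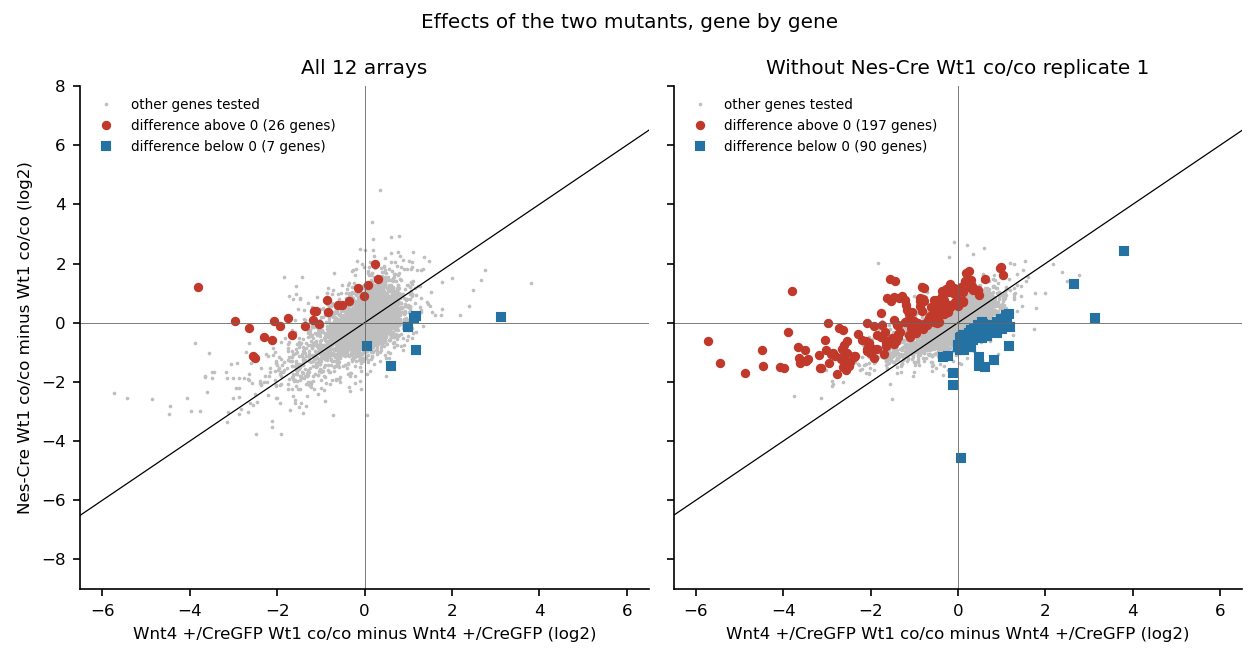
Change in the Nes-Cre mutant (vertical axis, log2) against change in the Wnt4 mutant (horizontal axis, log2) for the 9570 genes tested, with all 12 arrays (left) and with replicate 1 of the Nes-Cre mutant left out (right). The line marks equal effects, red circles are genes with a called difference above 0 (26 and 197) and blue squares those below 0 (7 and 90), and the red genes at the left of the right panel fell in both mutants and further in the Wnt4 mutant.

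Other single arrays also set the count. Leaving out Wt1 co/co replicates 1, 2 and 3 left 8, 11 and 28 genes, Nes-Cre Wt1 co/co replicates 2 and 3 left 54 and 11, Wnt4 +/CreGFP replicates 1, 2 and 3 left 13, 10 and 11, and Wnt4 +/CreGFP Wt1 co/co replicates 1, 2 and 3 left 7, 11 and 14. Of the 33 genes, 6 kept their call in all 12 such fits, namely Fcer1g, Lrrc57, Cd59a, Pdyn, Ccndbp1 and Tubgcp4. Each of the other 27 lost it in at least 1 fit, 1200015F23Rik and 5830467P10Rik in 1 each, and none of the 33 changed direction. Of 91 further genes called without replicate 1 and followed in the same way, 25 kept the call when each of the other 11 arrays was left out in turn as well. The count of 287 was then 124, 115 and 690 without Wt1 co/co replicates 1, 2 and 3, 339 and 83 without Nes-Cre Wt1 co/co replicates 2 and 3, 141, 131 and 173 without Wnt4 +/CreGFP replicates 1, 2 and 3, and 158, 290 and 208 without Wnt4 +/CreGFP Wt1 co/co replicates 1, 2 and 3. In what follows, a pair of values in parentheses after a gene gives its difference of effects and adjusted p, and a lone value after a stated difference gives its adjusted p.

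The largest block of genes lay on chromosome 2 around Wt1. Of 350 tested genes within 50 Mb of the Wt1 start, 13 had effects that differed (3.71%), against 0 of 376 genes further away on the same chromosome and 15 of 7986 genes outside chromosomes 1 and 2 (0.188%). Within 20 Mb it was 9 of 133 genes (6.77%). Without replicate 1 the counts were 31 of 350 (8.86%), 4 of 376 (1.06%) and 220 of 7986 (2.75%). All 13 had a larger effect in the Wnt4 mutant than in the Nes-Cre mutant, and 11 changed in the Wnt4 mutant only. Positions are those of the RefSeq annotation of GRCm38.p6, in which 9181 of the 9570 symbols were found. The 50 Mb distance was chosen after the values were seen.

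Lrrc57, a leucine-rich repeat gene at chr2:120604238-120609508, 15.5 Mb from Wt1, was detected in no array of 3 groups. Its log2 levels were 4.30, 4.31 and 4.33 in Wt1 co/co, 4.52, 4.26 and 4.34 in the Nes-Cre mutants, 7.63, 7.24 and 7.43 in Wnt4 +/CreGFP kidneys and 4.42, 4.51 and 4.48 in the Wnt4 mutants. The Wnt4 controls alone were high, without overlap, and the Wnt4 mutant was at least 6.83-fold lower than its control (difference of effects 3.03, standard error 0.16, adjusted p = 6.5e-06). Tubgcp4, a component of the gamma-tubulin ring complex that seeds microtubules, had the same order, with 6.16, 6.14 and 6.30 in the Wnt4 controls and 4.37 to 4.95 in the other 9 arrays (difference 1.27, adjusted p = 0.0038). Cd59a, which encodes an inhibitor of the complement membrane attack complex and lies 1.03 Mb from Wt1 at chr2:104095753-104115410, measured 9.87, 10.08 and 10.20 in the Wnt4 controls. Its levels were 8.07, 7.93 and 7.92 in the Wnt4 mutants, 8.24, 8.55 and 8.34 in the Wt1 co/co controls and 8.58, 8.43 and 8.28 in the Nes-Cre mutants. These 9 arrays lay between 7.92 and 8.58, below all 3 Wnt4 controls, and the Wnt4 mutant fell by 2.07 (difference 2.13, standard error 0.17, adjusted p = 0.00035).

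Other genes of the block followed the same order or its mirror image. Ccndbp1, a cyclin D-binding protein gene (difference 1.80), Rbbp9, a serine hydrolase gene (difference 1.80), 5830467P10Rik, now named Fermt1, which encodes the integrin activator kindlin-1 (difference 1.91), and 1200015F23Rik, now named Rmdn3 (difference 1.25), were high in the Wnt4 controls only. Their adjusted p was 0.0033, 0.031, 0.012 and 0.012. Tmem87a, Cat, Vps39 and Pdyn went the other way. Tmem87a, which encodes a Golgi membrane protein, measured 4.37, 4.84 and 6.05 in the Wnt4 controls, where it was detected in 1 of 3 arrays, and 8.32, 8.12 and 8.22 in the Wnt4 mutants, beside 8.19, 7.80 and 7.94 in the controls and 8.19, 8.08 and 8.19 in the mutants of the first set. The Wnt4 mutants thus lay at the level of both groups of the first set and above their own controls (difference -2.96, adjusted p = 0.031). Cat, the gene of the peroxisomal enzyme catalase 1.67 Mb from Wt1, measured 7.51, 7.42 and 7.48 in the Wnt4 controls against 8.41, 8.49 and 8.53 in their mutants, and 8.72, 8.18 and 8.35 in the controls and 8.41, 8.39 and 8.02 in the mutants of the first set (difference -1.15, adjusted p = 0.048). Vps39, a subunit of the lysosomal HOPS tethering complex, differed by -0.98 (adjusted p = 0.047). Pdyn, the gene of the opioid precursor prodynorphin, moved in both sets, from 5.55, 5.79 and 5.96 to 4.60, 5.12 and 4.82 in the Nes-Cre mutants and from 4.77, 4.72 and 4.86 to 5.87, 6.12 and 5.86 in the Wnt4 mutants (difference -2.08, adjusted p = 0.0028).

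**Figure D3:**
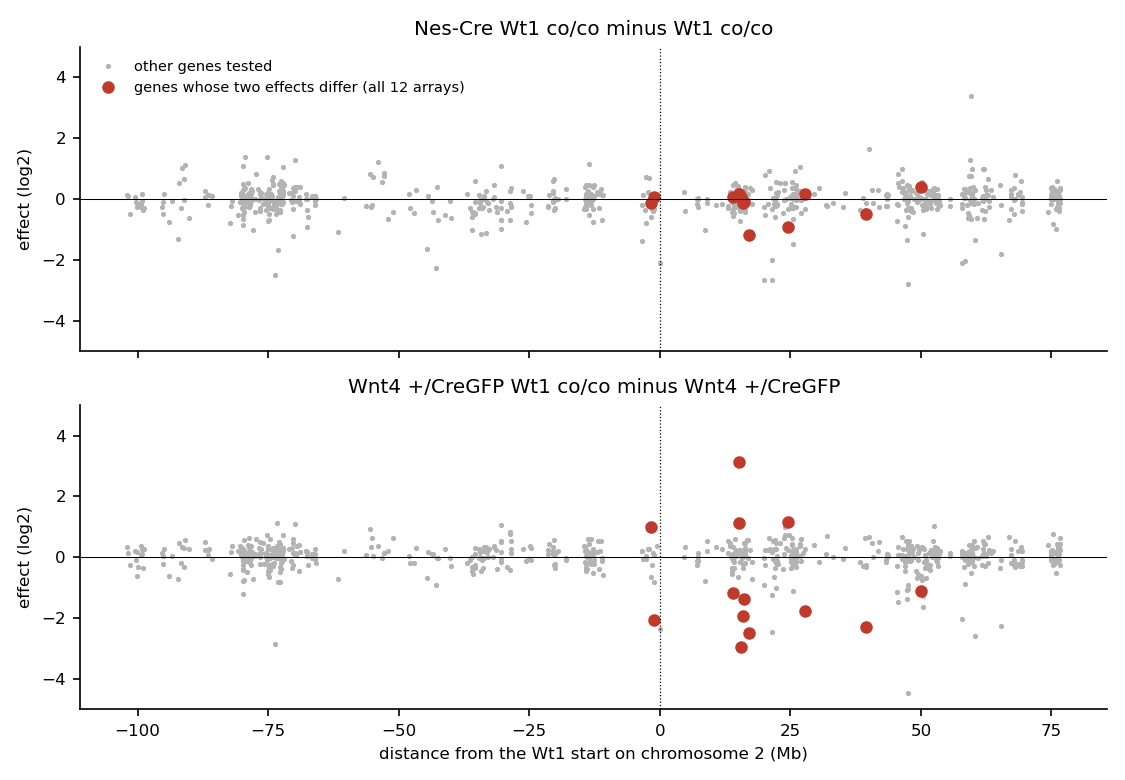
Change in each mutant (log2, vertical axes) of every tested gene on chromosome 2 against its distance from the Wt1 start (Mb, horizontal axis), from the fit of all 12 arrays, with the 13 genes whose effects differ in red. In the Wnt4 comparison the red genes spread away from 0 on both sides, from 1.67 Mb before the start to 49.9 Mb beyond it, and in the Nes-Cre comparison most of them lie near 0.

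The remaining 12 arrays of the study hold the same genes in other genotypes. They were normalized together with the 12 above, and the wild-type and Nes-Cre arrays form a further set with a higher background, so levels across sets are descriptions. Lrrc57 and Tubgcp4 were each detected in 12 of the 12 arrays with wild-type Wt1 and in 0 of the 12 arrays with Wt1 co/co, whether or not these carried Cre. The level of Cd59a was 10.57 ± 0.17 in wild-type, 10.68 ± 0.085 in Nes-Cre and 10.75 ± 0.13 in Pax8 +/Cre kidneys (mean ± SD, n = 3). It was 8.66 ± 0.13 where Pax8 +/Cre was joined to Wt1 co/co. Of the 13 genes, 11 also changed in Pax8 +/Cre Wt1 co/co against Pax8 +/Cre kidneys, all in the direction seen in the Wnt4 mutant, and 11 differed in the same direction between the Cre-free Wt1 co/co controls and wild-type kidneys (adjusted p under 0.05, limma). Loss of Wt1, the conditional allele and the linked segment cannot be told apart in the Wnt4 comparison, and in the Nes-Cre comparison the allele and segment are on both sides. The gene 5830467P10Rik did not follow the allele under the Pax8 driver. There its mean level was 8.50 in mutants and 8.60 in controls (change -0.095, adjusted p = 0.83, limma). Its mean was 6.07 in Cre-free Wt1 co/co kidneys, 6.23 in Nes-Cre mutants and 6.37 in Wnt4 mutants. Sord, which encodes the polyol enzyme sorbitol dehydrogenase, did not follow the allele. It measured 8.84, 8.52 and 8.87 in Wt1 co/co and 8.89, 8.87 and 8.79 in Wnt4 +/CreGFP kidneys, 7.82, 7.17 and 7.69 in the Nes-Cre mutants and 6.22, 6.43 and 6.34 in the Wnt4 mutants. It fell in both mutants and further in the Wnt4 mutant, with changes of -1.18 and -2.51 (difference 1.33, adjusted p = 0.046). Ahcy, the gene of the enzyme that clears S-adenosylhomocysteine, lies 49.9 Mb from Wt1, fell in the Wnt4 mutant alone by 1.11 (difference 1.49, adjusted p = 0.031) and was as low in both groups with the Pax8 driver.

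**Figure D4:**
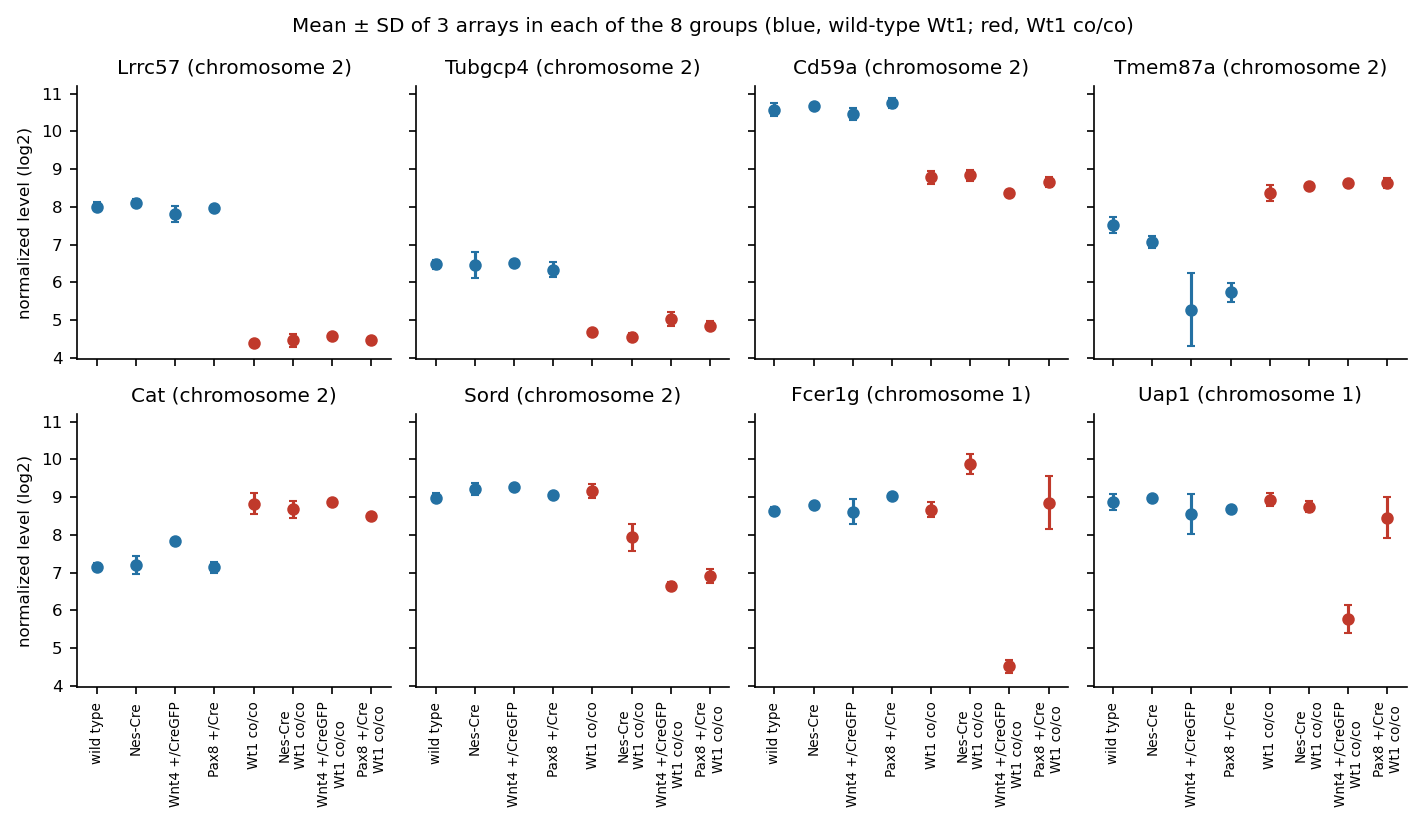
Normalized level (log2, vertical axis) of 8 genes in each of the 8 groups of the study, as mean ± SD of 3 arrays, with blue for wild-type Wt1 and red for Wt1 co/co. For Lrrc57, Tubgcp4, Cd59a, Tmem87a and Cat all red groups differ from all blue groups, Wt1 co/co without Cre included, whereas Sord was low only in mutants and Fcer1g and Uap1 were low only in Wnt4 +/CreGFP Wt1 co/co kidneys.

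A second cluster lay on chromosome 1. On a stretch of 3 Mb chosen after the values were seen, which holds Fcer1g, Uap1, Fcgr4 and Pex19, the effects of these 4 of 35 tested genes differed (11.4%), and without replicate 1 those of 8 of 35 (22.9%). Outside chromosomes 1 and 2 the shares were 0.188% and 2.75%. Fcer1g, the shared gamma chain of Fc receptors on myeloid cells at chr1:171229572-171234349, had the largest difference of all 33 genes. Its levels were 8.48, 8.09 and 8.23 in Wt1 co/co, 9.69, 9.17 and 9.51 in the Nes-Cre mutants, 8.31, 7.86 and 8.47 in Wnt4 +/CreGFP kidneys and 4.31, 4.37 and 4.57 in the Wnt4 mutants. The Wnt4 mutants were at background in 3 of 3 arrays, at least 11.7-fold below their controls, and the Nes-Cre mutants lay above all other arrays (difference 4.99, standard error 0.26, adjusted p = 6.5e-06). Uap1, which makes UDP-N-acetylglucosamine, measured 8.42, 7.56 and 8.47 in the Wnt4 controls and 5.27, 5.35 and 5.92 in their mutants, with 2 of 3 mutant arrays detected, and 8.74, 8.41 and 8.43 in the controls and 8.46, 8.19 and 8.37 in the mutants of the first set (difference 2.45, adjusted p = 0.021). Pex19, a chaperone of peroxisomal membrane proteins, fell by 1.03 in the Wnt4 mutant and was 9.38, 9.32 and 9.20 in the controls and 9.38, 9.14 and 9.30 in the mutants of the first set (difference 1.00, adjusted p = 0.031). Fcgr4, an Fc receptor of myeloid cells for IgG, rose by 0.78 in the Nes-Cre mutant and fell by 0.87 in the Wnt4 mutant (difference 1.65, adjusted p = 0.022). In the Pax8 mutant none of the 8 genes of this cluster changed at an adjusted p under 0.05, and Fcer1g was 8.85 ± 0.69 against 9.02 ± 0.077 (n = 3). The share of all genes that changed in the Pax8 comparison is not given here. Whether the 3 Wnt4 mutant embryos differ from the others in this part of chromosome 1 was not tested.

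Uap1 and Fcgr4 are neighbours in this cluster, and their promoters are shown because Uap1 was the only one of the genes chosen for display by class whose window held letters of the WT1 and EGR type. Sequences are RefSeq's, of build GRCm38.p6, from 250 bases before to 50 bases after the start of transcription and 5′ to 3′ on the gene's strand. The Uap1 window is chr1:170174915-170175214, minus strand, and capitals mark GCGTGGGNG, found once, at position -124 from the start. The Fcgr4 window is chr1:171018676-171018975, plus strand, and capitals mark the core of the interferon-stimulated response element (GAAA, any 2 bases, GAAA), which begins at position -73 from the start. Both strands were searched.
Uap1: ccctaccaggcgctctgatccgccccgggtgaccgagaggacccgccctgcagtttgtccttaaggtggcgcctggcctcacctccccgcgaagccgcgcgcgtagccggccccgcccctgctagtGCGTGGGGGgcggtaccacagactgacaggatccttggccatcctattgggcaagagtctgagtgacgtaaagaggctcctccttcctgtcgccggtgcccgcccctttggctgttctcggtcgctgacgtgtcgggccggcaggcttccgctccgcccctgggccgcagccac
Fcgr4: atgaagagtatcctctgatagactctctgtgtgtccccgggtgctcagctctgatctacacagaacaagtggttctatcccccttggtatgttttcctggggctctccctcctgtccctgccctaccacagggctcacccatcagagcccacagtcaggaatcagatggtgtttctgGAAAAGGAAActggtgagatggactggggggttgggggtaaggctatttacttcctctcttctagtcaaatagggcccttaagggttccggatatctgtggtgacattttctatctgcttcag
GCGTGGGNG was in the windows of 2.18% of 27025 genes and of 3.79% of the tested genes that have a window, and GCGGGGGCG in 3.31% and 6.33%. Of the 210 genes called without replicate 1 that have a window, 7 held the first (3.33%) and 5 the second (2.38%). These are matches of letters, not binding sites.

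Genes of myeloid cells were raised further in the Nes-Cre mutant than in the Wnt4 mutant. Macrophages settle in the fetal kidney early, and these genes serve their signalling and clearance of cell debris. Tyrobp, the DAP12 adaptor of myeloid receptors, measured 5.57, 5.78 and 5.90 in Wt1 co/co and 7.17, 6.86 and 7.07 in the Nes-Cre mutants, and 6.00, 5.86 and 5.94 in the controls and 5.86, 5.92 and 6.24 in the mutants of the second set. The Nes-Cre mutants lay above all other arrays (difference 1.21, standard error 0.19, adjusted p = 0.032). Lst1, a leukocyte transcript, measured 6.22, 6.14 and 5.95 in the controls and 7.47, 7.20 and 7.12 in the mutants of the first set and 6.71, 6.92 and 6.58 in the controls and 6.66, 6.58 and 6.52 in the mutants of the second set (difference 1.31, adjusted p = 0.021). Alox5ap, the membrane partner of 5-lipoxygenase in leukotriene synthesis, differed by 0.91 (adjusted p = 0.046). Of the 21 tested genes of the macrophage and complement list, 2 had effects that differed with all arrays, both above 0, and 8 without replicate 1, again all above 0 (38.1%, against 2.06% of all genes). The 2 were Tyrobp and Fcer1g, and Fcer1g is also among the 8. Fcer1g belongs to the chromosome 1 cluster as well, where it fell by 3.80 in the Wnt4 mutant and rose by 1.19 in the Nes-Cre mutant. Without replicate 1, 17 of the 21 rose in the Nes-Cre mutant, while 4 rose and 1 fell in the Wnt4 mutant. Of all genes, 14.6% rose in the Nes-Cre mutant, and 15.3% rose and 13.4% fell in the Wnt4 mutant. The median difference of the list was 0.62, beside -0.014 over all genes. C1qc, a chain of complement C1q made by macrophages, measured 7.43, 7.40 and 7.57 in Wt1 co/co kidneys, 9.19, 8.39 and 8.89 in the Nes-Cre mutants, 7.39, 7.73 and 7.64 in Wnt4 +/CreGFP kidneys and 7.40, 7.84 and 7.74 in their mutants (difference without replicate 1 1.10, adjusted p = 0.028). C1qa and C1qb differed by 1.13 and 1.06 (adjusted p = 0.043 and 0.042), lysozyme Lyz2 by 1.35 (0.023) and Aif1, a cytoskeletal protein of microglia and macrophages, by 0.90 (0.049). Aif1 was detected in no Wnt4 control, 1 Wt1 co/co, 2 Nes-Cre mutant and 3 Wnt4 mutant arrays, so its difference rests in part on undetected values. The list mean was 7.91, 7.14 and 7.60 in the Nes-Cre mutants, 6.53 to 6.60 in their controls and 6.52 to 6.81 in the second set. It was thus highest in replicate 1, the array with the muscle genes. With replicate 3 left out as well, adjusted p was 0.11 to 0.21 for C1qa, C1qb, C1qc, Lyz2 and Aif1.

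The next genes respond to interferon. They were not among the lists and were picked after their values were seen, so that no share over such genes is given. Ifi35, an interferon-induced protein gene, measured 6.85, 7.03 and 6.81 in Wt1 co/co, 7.67, 7.35 and 7.52 in the Nes-Cre mutants, 6.85, 7.23 and 6.96 in Wnt4 +/CreGFP kidneys and 6.57, 6.42 and 6.51 in the Wnt4 mutants. Mutants and controls were fully separate within each set, and they moved in opposite directions (difference 1.13, standard error 0.18, adjusted p = 0.032). Dhx58, a cytosolic RNA sensor of the RIG-I family, was detected in no Wnt4 mutant array and differed by 1.22 (adjusted p = 0.031). Tap1, the peptide transporter of antigen presentation, was also detected in no Wnt4 mutant array and in 1 of 3 Wnt4 controls, and differed by 1.11 (adjusted p = 0.047). Without replicate 1 the effects also differed for Irf9, part of the complex that carries the interferon signal to the nucleus (1.27, adjusted p = 0.023), for Parp14 (1.59, 0.0098) and for Psmb9, an immunoproteasome subunit (0.94, 0.035). Ifit3, an antiviral target gene, measured 7.04, 6.61 and 6.52 in the controls and 6.70, 7.12 and 7.79 in the mutants of the first set and 7.14, 8.14 and 7.49 in the controls and 6.26, 5.65 and 6.28 in the mutants of the second set (difference 2.26 without replicate 1, adjusted p = 0.012). Usp18, which damps the receptor, Ifi27 and Bst2, which tethers virions, differed by 2.34, 2.84 and 1.95 (adjusted p = 0.036, 0.034 and 0.033). Parp14, Psmb9 and Ifi27 passed the test in both mutants in opposite directions, Ifit3 and Usp18 in the Wnt4 mutant only, and Irf9 and Bst2 in the Nes-Cre mutant only. Wnt4 +/CreGFP replicate 2 was the highest of its group for Ifi27, Ifit3 and Usp18, and Ifi27 was 7.08, 8.90 and 7.19 in the 3 arrays of that group. Parp14 kept its call in every fit that left out 1 more array, and Ifit3, Usp18, Ifi27, Bst2, Irf9 and Psmb9 did not (adjusted p = 0.073 to 0.16 without replicates 1 and 3).

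The promoters of Ifit3 and Bst2 are printed because each holds the letters of the interferon-stimulated response element more than once, shown in capitals on either strand. The Ifit3 window is chr19:34583279-34583578, plus strand, with matches at positions -156 and -122, and the Bst2 window is chr8:71537423-71537722, minus strand, with overlapping matches at positions -130 and -124.
Ifit3: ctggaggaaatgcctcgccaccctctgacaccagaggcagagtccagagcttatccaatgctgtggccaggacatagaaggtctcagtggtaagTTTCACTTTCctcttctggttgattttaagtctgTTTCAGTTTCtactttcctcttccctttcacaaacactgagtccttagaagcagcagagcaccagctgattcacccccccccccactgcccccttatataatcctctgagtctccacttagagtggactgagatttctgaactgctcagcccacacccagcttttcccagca
Bst2: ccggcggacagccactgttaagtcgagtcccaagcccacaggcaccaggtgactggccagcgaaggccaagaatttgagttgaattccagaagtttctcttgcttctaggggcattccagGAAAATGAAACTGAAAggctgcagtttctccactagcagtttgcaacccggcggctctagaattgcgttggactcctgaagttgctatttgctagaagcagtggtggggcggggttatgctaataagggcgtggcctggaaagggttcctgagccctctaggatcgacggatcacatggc
Of the 210 called genes with a window, 16 held these letters (7.62%), against 3.41% of tested genes and 3.99% of all genes with a window. The windows of Ifi35, Irf9, Tap1 and Psmb9 held no match.

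The rest of the 33 genes are of mixed function. Actr3b, an actin-related protein gene, measured 5.36, 5.48 and 5.58 in Wt1 co/co and 7.00, 6.89 and 6.92 in the Nes-Cre mutants and 5.65, 5.47 and 5.41 in the controls and 5.86, 5.93 and 5.62 in the mutants of the second set, so that it was raised in the Nes-Cre mutant alone (difference 1.17, adjusted p = 0.021). AI593442 was detected only in the Nes-Cre mutants, at 6.95, 6.59 and 5.90, at least 3.77-fold above their controls (difference 1.75, adjusted p = 0.047). Gtf3c2, a subunit of the RNA polymerase III factor TFIIIC, fell by 0.79 in the Nes-Cre mutant and was 9.09, 9.05 and 9.17 in the controls and 9.22, 9.16 and 9.10 in the mutants of the second set (difference -0.84, adjusted p = 0.036). Zfp395, a zinc finger gene, was detected in no Nes-Cre mutant array, at least 2.76-fold below its control, and differed by -2.07 (adjusted p = 0.046). Hist1h1b, the linker histone gene now named H1f5, measured 5.03, 4.94 and 4.78 in the Wnt4 controls, where it was not detected, and 6.00, 6.22 and 6.04 in the Wnt4 mutants, and 5.25 to 5.65 across the first set (difference -0.93, adjusted p = 0.032). In the Wnt4 mutant alone fell the splicing factor gene Sfrs16, now Clasrp (difference 1.56), the F-box gene Fbxo46 (difference 1.19) and the ubiquitin ligase gene Rnf219, now Obi1 (difference 1.26), with adjusted p = 0.046, 0.038 and 0.046. They were detected in 1, 0 and 2 of the 3 Wnt4 mutant arrays, and Fbxo46 was at least 1.78-fold below its control. Ela1, a pancreatic-type elastase gene now named Cela1, and LOC100044862, which has no position in the annotation, fell in both mutants and further in the Wnt4 mutant. Ela1 was 9.86, 9.71 and 9.94 in Wt1 co/co, 8.48, 8.55 and 9.10 in the Nes-Cre mutants, 9.67, 9.56 and 9.79 in Wnt4 +/CreGFP and 7.02, 7.14 and 7.21 in the Wnt4 mutants (difference 1.42, adjusted p = 0.029). LOC100044862 differed by 1.53 (adjusted p = 0.021).

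Leaving out replicate 1 brought in proximal tubule genes, most of which fell in both mutants and fell further in the Wnt4 mutant. The proximal tubule reabsorbs most of the filtered sugar, amino acids, phosphate and organic anions, and makes glucose. Of the 28 tested genes of its metabolism list 14 had effects that differed (50%), and of the 26 genes of the transport and endocytosis list 8 (30.8%), all above 0, against 2.06% of all genes. The median differences were 1.01 and 0.44, beside -0.014 over all genes. With all 12 arrays these 2 lists held 1 and 0 such genes. Their median differences were then 0.73 and -0.10, beside -0.041 over all genes, so the direction of the transport list turned with replicate 1. Next, the 62 genes of any function that were called without replicate 1, fell in both mutants and fell further in the Wnt4 mutant were taken. For each, every mutant array was set against the mean of its own controls. Replicates 2 and 3 lie above the Wnt4 mutants by this choice, whereas replicate 1 was left out of the fit that made it. Replicate 1 lay below all 3 Wnt4 mutants in 33 of these genes and above all 3 in 23. The median change was -2.93 in replicate 1, -1.03 in the mean of replicates 2 and 3 and -2.51 in the Wnt4 mutants.

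Miox, the myo-inositol oxygenase of the tubule, had the largest difference without replicate 1. It measured 10.80, 10.45 and 10.86 in Wt1 co/co kidneys, 4.76, 9.77 and 10.42 in the Nes-Cre mutants, 10.88, 10.38 and 10.34 in Wnt4 +/CreGFP kidneys and 4.85, 4.88 and 4.70 in the Wnt4 mutants. Replicates 2 and 3 stayed nearer to their controls than to background, and replicate 1 and all 3 Wnt4 mutants were at background. The Wnt4 mutant was at least 52.8-fold below its control, and the difference was 5.11 without replicate 1 (standard error 0.27, adjusted p = 7.5e-07) and 3.34 with it (0.33). Serpina6, the gene of the corticosteroid carrier of plasma, measured 9.44, 9.30 and 9.28 in the controls and 4.44, 7.84 and 8.08 in the mutants of the first set and 9.59, 10.14 and 9.68 in the controls and 4.39, 4.37 and 4.35 in the mutants of the second set, at least 35.3-fold lower in the Wnt4 mutant (difference 4.06, adjusted p = 6.4e-07, and 2.88 with replicate 1, 0.22). Its 2 retained Nes-Cre arrays lay between their controls and the Wnt4 mutants. Spp2, a secreted phosphoprotein gene, and Ttr, which encodes the thyroid hormone carrier transthyretin, differed by 3.57 and 3.57 (adjusted p = 4.2e-05 and 0.0047). Gpx3, the secreted glutathione peroxidase, measured 8.93, 11.63 and 11.96 in the Nes-Cre mutants and 9.13, 9.31 and 9.81 in the Wnt4 mutants, with controls at 12.37 to 13.01 (difference 2.08, adjusted p = 0.0015).

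Enzymes of glucose production and amino acid breakdown followed. G6pc, glucose-6-phosphatase, measured 8.98, 8.78 and 8.93 in Wt1 co/co kidneys, 5.03, 7.80 and 8.36 in the Nes-Cre mutants, 8.56, 8.66 and 8.92 in Wnt4 +/CreGFP kidneys and 4.76, 5.06 and 5.35 in the Wnt4 mutants (difference 2.84, adjusted p = 0.0001). Fbp1, fructose-bisphosphatase, differed by 2.43 (0.0065), Prodh2, which oxidises hydroxyproline, by 2.57 (0.0018) and Fah, which ends tyrosine breakdown, by 1.23 (0.047). Kap, the kidney androgen-regulated protein gene, differed by 2.47 (0.0011), Car15, a carbonic anhydrase gene, by 1.85 (0.0022), and Ugt3a2, a glycosyltransferase gene, by 1.62 (0.0022). The windows of G6pc and Prodh2 are shown because they hold the letters GTTAAT, any base, ATT of the site bound by HNF1 factors of the proximal tubule and liver. The G6pc window is chr11:101367466-101367765, plus strand, with the match at position -221, and the Prodh2 window is chr7:30493408-30493707, plus strand, with the match on the opposite strand at position -128. Capitals mark the match.
G6pc: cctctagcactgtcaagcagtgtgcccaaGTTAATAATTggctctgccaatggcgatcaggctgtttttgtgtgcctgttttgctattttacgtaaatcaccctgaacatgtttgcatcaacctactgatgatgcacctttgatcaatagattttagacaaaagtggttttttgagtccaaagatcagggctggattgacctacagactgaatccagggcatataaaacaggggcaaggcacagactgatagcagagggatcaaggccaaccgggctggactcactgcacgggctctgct
Prodh2: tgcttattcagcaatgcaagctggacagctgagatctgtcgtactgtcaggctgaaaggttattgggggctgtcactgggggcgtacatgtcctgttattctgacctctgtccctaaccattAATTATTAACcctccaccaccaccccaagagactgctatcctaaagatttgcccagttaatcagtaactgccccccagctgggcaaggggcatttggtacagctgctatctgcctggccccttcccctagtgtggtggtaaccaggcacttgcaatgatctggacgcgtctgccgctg
Of the 210 called genes with a window 4 held these letters (1.90%), against 0.343% of tested genes and 0.470% of all genes with a window.

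Transporters of the apical and basal membrane fell in both mutants, and 24 of 26 genes of their list had a difference above 0 without replicate 1, of which 8 passed the test (30.8%, against 2.06% of all genes). With all 12 arrays the median difference of this list was -0.10. Slc34a1, the sodium-phosphate cotransporter, measured 12.93, 12.83 and 12.86 in Wt1 co/co kidneys and 11.31 and 11.63 in Nes-Cre replicates 2 and 3, with 4.42 in replicate 1, and 13.18, 13.15 and 13.01 in the controls and 10.38, 10.53 and 10.98 in the mutants of the second set. The difference was 1.08 without replicate 1 (adjusted p = 0.017) and -1.27 with it (0.77), so its direction turned. Slc22a6, the organic anion transporter OAT1, differed by 1.60 (0.033) and -0.20 with replicate 1 (0.95), and Slc27a2, a fatty acid transporter whose gene lies 21.4 Mb from Wt1, by 1.15 (0.045) and -0.21 (0.94). Slc13a3, a dicarboxylate transporter, and Slc5a2, the glucose transporter SGLT2, differed by 1.84 and 1.34 (adjusted p = 0.0062 and 0.028). Of 14 brush border peptidase genes 2 differed above 0 (14.3%, against 2.06%), Mep1b, meprin beta (1.24, 0.0062), and Dpep1, a dipeptidase (1.75, 0.024). The median difference of these 14 genes was 0.30 without replicate 1 and -0.49 with it. With replicate 3, the array high in liver genes, left out as well, so that 1 Nes-Cre mutant array remains and is taken to vary like the other groups, Miox, Serpina6, Spp2, G6pc, Fbp1, Prodh2, Gpx3 and Car15 stayed called, at differences of 1.55 to 4.79 (adjusted p = 5.65e-06 to 0.029), and Slc34a1, Slc22a6, Slc27a2, Slc5a2 and Dpep1 did not (0.86 to 1.44, adjusted p = 0.096 to 0.2). Slc16a4, a monocarboxylate transporter, Gsta2, a glutathione transferase, and Cyp2e1, a cytochrome P450, differed by 2.22, 2.24 and 2.09 (adjusted p = 0.0098, 0.011 and 0.03). Of 14 liver and plasma protein genes, which the proximal tubule partly shares, 4 differed, all above 0 (28.6%, against 2.06% of all genes), namely Ttr and Serpina6, described already, Serpina1b, an alpha-1-antitrypsin gene (1.98, 0.032), and Apom, an apolipoprotein gene (1.04, 0.045). Without replicate 3 as well, Ttr and Serpina6 stayed called (2.83, 0.0089, and 3.94, 5.7e-06), and Serpina1b and Apom did not (1.27, 0.055, and 0.80, 0.20).

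**Figure D5:**
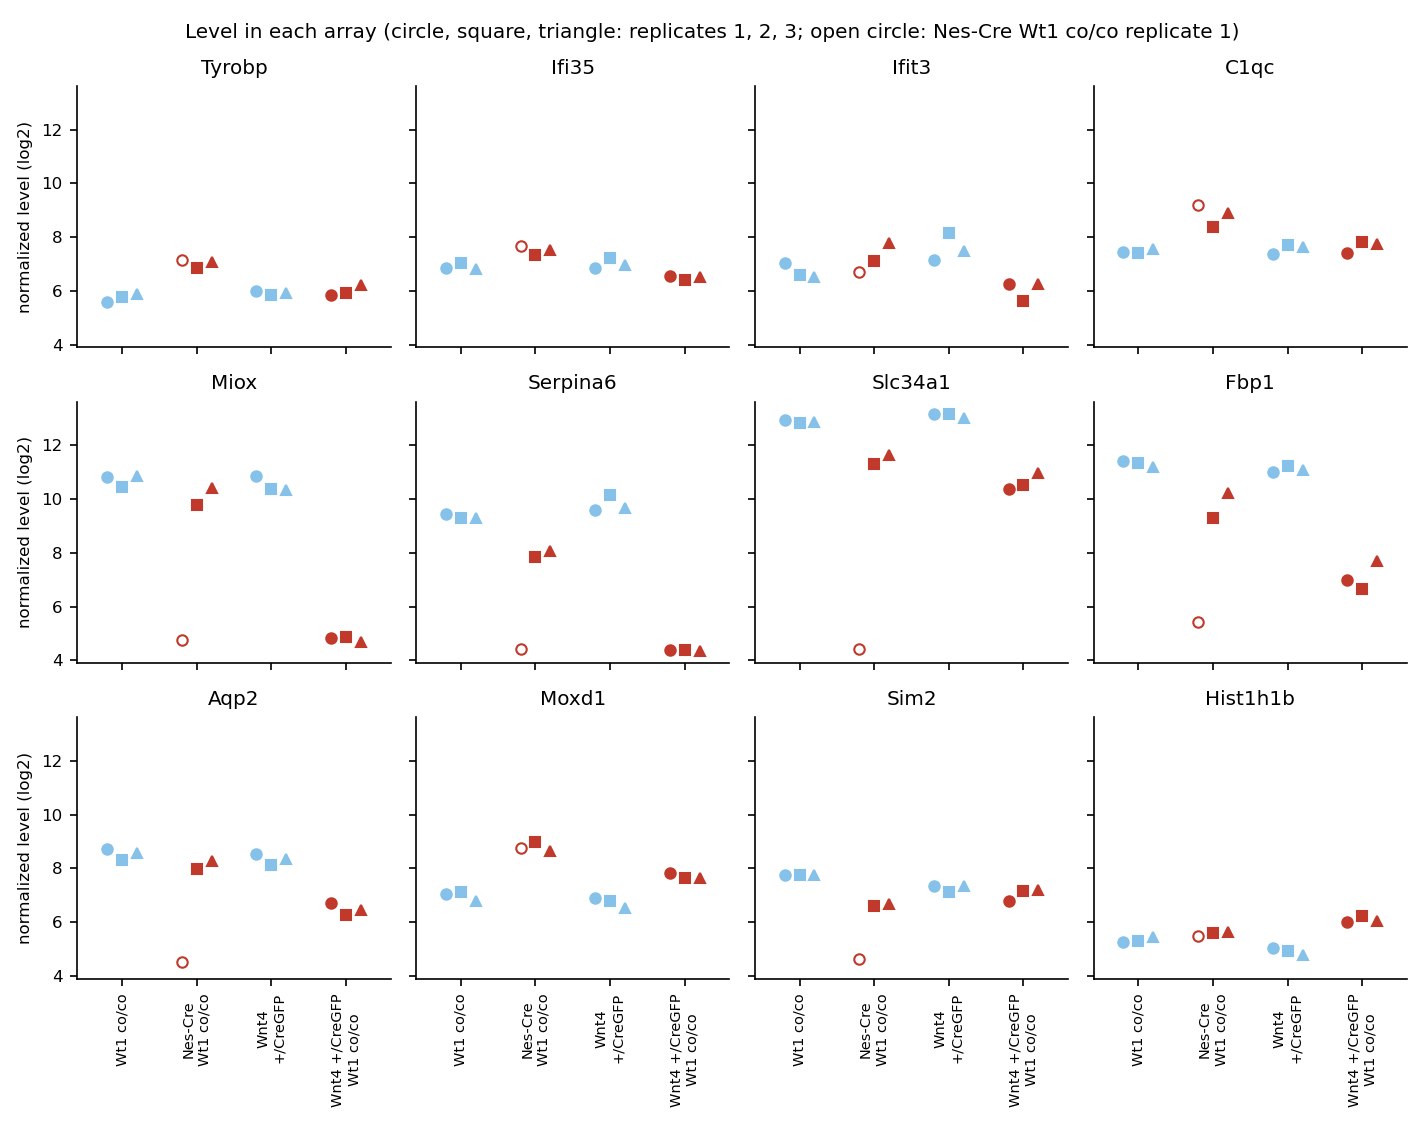
Normalized level (log2, vertical axis) of 12 genes in each array, by group, with blue for controls, red for mutants, circle, square and triangle for replicates 1, 2 and 3, and the open circle for Nes-Cre Wt1 co/co replicate 1. For Miox, Serpina6, Fbp1 and Aqp2 replicates 2 and 3 of the Nes-Cre mutant lie above the 3 Wnt4 mutants and replicate 1 does not, and for Tyrobp, Ifi35 and Moxd1 all 3 Nes-Cre mutants lie above the Wnt4 mutants.

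Single genes of the glomerulus and collecting duct were also called without replicate 1. Ptpro, a receptor phosphatase of podocytes, was detected in none of the 6 mutant arrays, at least 3.29-fold lower in the Nes-Cre and at least 6.63-fold lower in the Wnt4 mutant. With both mutants at background the size of its difference was not measured, although the fit called it (adjusted p = 0.033). The fit called 2 of 21 podocyte genes (9.52%, against 2.06% of all genes above 0), Ptpro among them, and the median difference of the list was 0.14. Aqp2, the water channel of the collecting duct, measured 8.71, 8.30 and 8.58 in the controls and 4.53, 7.99 and 8.26 in the mutants of the first set and 8.52, 8.14 and 8.37 in the controls and 6.73, 6.29 and 6.47 in the mutants of the second set (difference 1.45, adjusted p = 0.0062). It fell by 1.85 in the Wnt4 mutant, and its change of -0.40 in the Nes-Cre mutant did not pass the test (adjusted p = 0.083). Of 28 tested genes of the collecting duct list 2 differed, both above 0 (7.14%, against 2.06% of all genes), and the list median was 0.13. In the Wnt4 mutant 8 of the 28 rose and 8 fell (15.3% and 13.4% of all genes). In the Nes-Cre mutant 7 rose and 2 fell (14.6% and 13.7% of all genes). Fxyd4, a regulator of the sodium pump in the collecting duct, rose in both mutants, by 1.12 and 0.45, and differed by 0.67 without replicate 1 (0.036) and by -1.25 with it (0.72), with 4.62 in replicate 1 against 10.56 and 10.21 in the others. Fxyd2, its counterpart in the tubule, differed by 0.74 (0.036) and by -1.26 with replicate 1 (0.73), and Kng2, a kininogen gene, by 1.07 (0.039). Both are on the list of loop of Henle and distal tubule genes, of which 2 of 26 differed, both above 0 (7.69%, against 2.06% of all genes).

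The mean level of striated muscle genes was higher in all 3 Nes-Cre mutants than in the other arrays, and not only in replicate 1. Of 18 tested, 7 differed above 0 and 1 below without replicate 1 (38.9% and 5.56%, against 2.06% and 0.940% of all genes). Tnnc2, fast troponin C, measured 4.44, 4.57 and 5.06 in Wt1 co/co kidneys, 12.02, 6.14 and 6.08 in the Nes-Cre mutants, 4.38, 4.41 and 4.36 in Wnt4 +/CreGFP kidneys and 4.70, 4.36 and 4.57 in the Wnt4 mutants (difference 1.26, adjusted p = 0.012). Myh8, perinatal myosin, was 9.96, 6.46 and 6.66 in the Nes-Cre mutants and 4.65 to 5.24 in the other arrays (1.51, 0.0099). Tnni2, troponin I, and Mylpf, a myosin light chain, differed by 1.26 and 1.10 (0.0018 and 0.042). Actn3, an alpha-actinin, differed by -1.23 (0.0062), with 6.73, 6.31 and 6.34 in the Wnt4 mutants and 5.62, 5.44 and 5.67 in their controls. Cryab, a small heat shock protein, and Pgam2, a phosphoglycerate mutase, went another way than the contractile genes and fell in both mutants, with changes of -1.38 and -1.36 in the Wnt4 mutant and -0.38 and -0.48 in the Nes-Cre mutant.

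Among the 90 genes with a difference below 0 were factors that pattern the renal vesicle and S-shaped body. Of 26 tested genes of that list 4 differed, all below 0 (15.4%, against 0.940% of all genes), and the list median was -0.51. Irx3, a transcription factor gene of the intermediate segment, fell in both mutants, with changes of -1.15 in the Nes-Cre and -0.34 in the Wnt4 mutant (difference -0.80, 0.023). Hes5 and Hey1, targets of Notch, fell in the Nes-Cre mutant and rose in the Wnt4 mutant, with changes of -0.39 and -0.37 against 0.34 and 0.28 (differences -0.72 and -0.66, adjusted p = 0.036 and 0.026), and they were the 2 of 23 Notch genes that differed (8.70%, against 0.940% of all genes below 0). Greb1 rose in the Wnt4 mutant by 0.66, and its change of -0.45 in the Nes-Cre mutant did not pass the test (difference -1.11, 0.039). Sim2, a transcription factor gene on none of the lists, measured 7.78, 7.77 and 7.77 in Wt1 co/co kidneys, 4.63, 6.60 and 6.66 in the Nes-Cre mutants, 7.35, 7.12 and 7.33 in Wnt4 +/CreGFP kidneys and 6.78, 7.15 and 7.18 in the Wnt4 mutants (difference -0.91, adjusted p = 0.02). It fell in the Nes-Cre mutant only, as did Itga6, a laminin receptor chain whose gene lies within 50 Mb of Wt1 (change -0.83, adjusted p of the difference 0.042). Gja1, a connexin gene, measured 11.59, 11.52 and 11.26 in the controls and 10.23, 11.29 and 11.42 in the mutants of the first set and 11.15, 11.26 and 11.25 in the controls and 11.86, 11.82 and 11.96 in the mutants of the second set (difference -0.76, adjusted p = 0.011). Without replicates 1 and 3, Gja1 kept its call, and Irx3, Hes5, Hey1 and Sim2 had an adjusted p of 0.072 to 0.14.

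Of 42 tested genes with a histone symbol, a set chosen after the values were seen, 5 had a called difference without replicate 1, all below 0 (11.9%, against 0.940% of all genes). In the Wnt4 mutant 21 of the 42 rose and 2 fell, and in the Nes-Cre mutant 2 rose and 1 fell. Of all genes, 15.3% rose and 13.4% fell in the Wnt4 mutant, and 14.6% rose and 13.7% fell in the Nes-Cre mutant. Hist2h2bb, Hist1h2bb, Hist2h4 and Hist1h4m, all core histone genes whose near-identical copies may share probes, differed by -1.34, -0.87, -0.93 and -0.91 (adjusted p = 0.014, 0.033, 0.033 and 0.05), beside Hist1h1b. The first 3 were detected in 3 of 3 Wnt4 mutants and in no Nes-Cre mutant and no Wnt4 control, so that their fitted differences rest on groups at background. Their adjusted p was 0.063 to 0.17 without replicates 1 and 3. Uhrf1, which maintains DNA methylation, and Nusap1, a spindle protein whose gene lies 14.5 Mb from Wt1, differed by -0.65 and -0.63 (0.03 and 0.048). They were picked after their values were seen, and 2 of 30 genes of the cell cycle list differed, both below 0 (6.67%, against 0.940% of all genes). Cops8, a subunit of the COP9 signalosome, had the largest difference below 0. It measured 9.00, 8.52 and 9.66 in Wt1 co/co kidneys, 8.85, 4.50 and 4.46 in the Nes-Cre mutants, 9.72, 9.68 and 9.72 in Wnt4 +/CreGFP kidneys and 9.62, 9.89 and 9.79 in the Wnt4 mutants. Replicates 2 and 3 were at background, at least 21.7-fold below their controls, and replicate 1 was not (difference -4.64, adjusted p = 7.5e-06, and -3.18 with replicate 1, 0.28).

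Of the 197 genes with a difference above 0, 7 rose in both mutants and further in the Nes-Cre mutant. Moxd1, a monooxygenase gene, measured 7.04, 7.11 and 6.80 in Wt1 co/co kidneys, 8.77, 8.97 and 8.67 in the Nes-Cre mutants, 6.89, 6.80 and 6.53 in Wnt4 +/CreGFP kidneys and 7.81, 7.65 and 7.66 in the Wnt4 mutants, in the same order with replicate 1 as without it (difference 0.87, adjusted p = 0.034, and 0.85 with it, 0.095). Htr2b, a serotonin receptor, Mfap2, a microfibril protein, and Crabp2, a retinoic acid-binding protein, differed by 0.91, 0.45 and 0.59 (adjusted p = 0.009, 0.049 and 0.042). Fxyd4, above, was another. Ebf2, a transcription factor gene, rose by 1.37 in the Nes-Cre mutant only (1.21, 0.0052). Sprr2g, a gene of cornified epithelia, rose in both mutants and further in the Wnt4 mutant, to 9.69, 9.45 and 9.84 from 5.73, 6.23 and 5.60, against 8.87 and 8.05 in Nes-Cre replicates 2 and 3 from 6.08, 6.26 and 5.73, with 5.14 in replicate 1 (difference -1.37, adjusted p = 0.049).

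Single members of other lists differed as well. Of 32 stroma and 26 endothelium genes 1 each was above 0 (3.13% and 3.85%), against 2.06% of all genes. Of 35 axon guidance genes 1 was above and 1 below 0 (2.86% each), against 2.06% and 0.940% of all genes. Of 30 fatty acid oxidation and peroxisome genes 3 were above (10%) and 1 below (3.33%), and of 8 cartilage and bone genes 1 was below (12.5%). Above 0 were Cxcl12, the stromal chemokine (0.64, adjusted p = 0.034), Ly6c1, a surface protein of endothelium (0.99, 0.042), Fabp3, a fatty acid carrier (1.13, 0.03), Acadvl, a dehydrogenase of fatty acid oxidation (0.62, 0.033), and Sema4a, a semaphorin (0.58, 0.033). Below 0 were Col2a1, the cartilage collagen (-0.86, 0.033), and Epha7, an ephrin receptor (-0.81, 0.03). All of these but Ly6c1, which was not followed, lost the call in at least 1 fit that left out 1 more array. Cxcl12 was detected in no Wnt4 mutant array and in 1 Wnt4 control, although its level was high there. It measured 9.55, 9.72 and 9.64 in the Wnt4 controls and 9.33, 9.41 and 9.28 in the Wnt4 mutants.

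Of the 40 lists, 17 held no gene whose effects differed in either fit. Among them were the cap mesenchyme (18 genes), the ureteric tip (16), the Hox genes (21), the canonical Wnt targets and modulators (28), the cytosolic ribosomal proteins (50) and the mitochondrial respiratory chain (53). The median differences of these 6 lists without replicate 1 were -0.28, -0.093, -0.12, -0.26, -0.043 and 0.11. Of the cap mesenchyme genes 7 rose in the Nes-Cre mutant and 13 in the Wnt4 mutant without replicate 1 and none fell in either. Of all genes, 14.6% rose and 13.7% fell in the Nes-Cre mutant, and 15.3% rose and 13.4% fell in the Wnt4 mutant. A missed threshold does not show that the 2 effects were equal. Across all genes tested the 2 effects correlated at r = 0.577 with all arrays and 0.585 without replicate 1, as a description over genes that share arrays.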

How the data were processed

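Total RNA of E18.5 kidneys was labelled with the Illumina TotalPrep kit and hybridised to Ref8 v2 BeadChips, as the methods state, with no account of how probes of a gene were combined. The deposited table holds the bead intensity of each gene symbol, neither background-corrected nor normalized, and the deposited detection p-value of each intensity. A second deposited table holds a linear ratio per gene, scaled by the authors so that the median of 3 control arrays is 1 in each set of 6 arrays. It was used only as an alternative, and in each of the 4 groups its column for replicate 1 followed the intensities of replicate 3 and the reverse (r = 0.754 to 0.961 across 9558 genes, against -0.449 to 0.827 for equal numbers), so that the array called replicate 1 here is replicate 3 there.

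The background mean and spread of each array were read from the intensities at a detection p near 0.5 and 0.16. They were passed to normexp (offset 16), followed by quantile normalization over the 12 arrays and log2. A gene was kept where at least 3 of the 12 arrays detected it (detection p under 0.01). A mean per group was fitted with limma 3.58.1 in R 4.3.3 (empirical Bayes with a trend). The contrast was the Nes-Cre change minus the Wnt4 change, which share no controls, and p-values were adjusted by Benjamini-Hochberg over the 9570 genes. The repeat left Nes-Cre Wt1 co/co replicate 1 out of the fit. All adjusted p in the text are from these limma fits, and replicates are separate embryos. Where all arrays of a group lay at a detection p of 0.01 or more, a fold is given as at least the ratio of the detected group's mean to the detection limit, or to the gene's own signal where that was higher. The number of arrays limits the precision. The fit was tested on simulated data.

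Described genes were the 6 largest differences in each direction of each class among genes detected in every group, the 5 largest in each direction among the others, and up to 5 called members of each of 40 gene lists. The interferon and histone genes, other genes on no list that were called only without replicate 1, and the promoters other than those of Uap1 and Fcgr4, were chosen after their values were seen. Some of the described genes are not reported here. The members, the lists and the contrast were chosen with earlier results of these data known. Alternatives covered background correction, normalization, the detection filter, the ratio table, the number of arrays fitted, array weights, a replicate block, sex, a fold threshold, the Nes-Cre transgene and each array left out. Sex was read from the levels of Eif2s3y and Jarid1d. Read as male were Wt1 co/co replicates 1 and 3, Nes-Cre Wt1 co/co replicate 2, Wnt4 +/CreGFP replicate 1 and Wnt4 +/CreGFP Wt1 co/co replicates 2 and 3. Sex was thus not balanced between mutants and controls in either set. Promoter windows were found in RefSeq for 24 of the 33 and 210 of the 287 genes. Python 3.11.15 and matplotlib 3.10.9 were used for tables and figures.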

Additional observations from a re-analysis of the deposited data

Results flagged for a closer look

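The change after Nes-Cre deletion and the change after Wnt4 CreGFP deletion differed, by the test of the difference itself (limma, adjusted p under 0.05), in 33 genes with all 12 arrays and in 287 once replicate 1 of the Nes-Cre mutant was left out. The value beside each gene is the log2 change of the Nes-Cre mutant minus that of the Wnt4 mutant, from the fit of all 12 arrays. On chromosome 2 within 50 Mb of Wt1 and above 0 were Lrrc57 (3.03), Cd59a (2.13), 5830467P10Rik (1.91), Ccndbp1 (1.80), Rbbp9 (1.80), Ahcy (1.49), Sord (1.33), Tubgcp4 (1.27) and 1200015F23Rik (1.25). On the same stretch and below 0 were Cat (-1.15), Vps39 (-0.98), Pdyn (-2.08) and Tmem87a (-2.96). On the stretch of chromosome 1 around Fcer1g, all above 0, were Fcer1g (4.99), Uap1 (2.45), Fcgr4 (1.65) and Pex19 (1.00). Myeloid and interferon-responsive genes elsewhere, again all above 0, were Lst1 (1.31), Tyrobp (1.21), Alox5ap (0.91), Dhx58 (1.22), Ifi35 (1.13) and Tap1 (1.11). The remaining genes above 0 were AI593442 (1.75), Sfrs16 (1.56), LOC100044862 (1.53), Ela1 (1.42), Rnf219 (1.26), Fbxo46 (1.19) and Actr3b (1.17). The remaining genes below 0 were Gtf3c2 (-0.84), Hist1h1b (-0.93) and Zfp395 (-2.07). Single genes of this set have groups at background, so that their fitted difference is no bound: Lrrc57, Tubgcp4, Fcer1g, Dhx58, Fbxo46 and Tap1 were detected in no Wnt4 mutant array, Zfp395 in no Nes-Cre mutant array, AI593442 in the Nes-Cre mutants alone, and Pdyn and Hist1h1b in no Wnt4 control.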

How the results depend on the processing

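The number of genes whose effects differed, 33 (26 above 0), was 19 with neqc background, 8 (7 above 0) with 75th percentile scaling, 5 from the ratio table, 17 with no detection filter, 291 (147 above 0) with all 24 arrays, 4 with the replicate block, 849 (412 above 0) with array weights, 11 with sex, 71 (41 above 0) with the Nes-Cre transgene subtracted, and, as an alternative chosen after seeing the data, 6 with genes within 50 Mb of Wt1 left out. Genes changed in the Nes-Cre mutant, 1586, were 2653 with all 24 arrays, 830 with the block, 3223 with weights and 876 with a 1.5-fold threshold. Those changed in the Wnt4 mutant, 941, were 1670, 531, 3275 and 551. Differing members of the gene lists, 4, were 2 with no background correction, with neqc and with quantile normalization within sets, 1 with 75th percentile scaling, the ratio table, no filter, the block, sex or the 50 Mb left out, 43 with all 24 arrays, 106 with weights and 10 with the transgene subtracted. Genes changed in the Wnt4 mutant only, 17, were 9 (neqc), 5 (75th percentile), 3 (ratio table), 11 (no filter), 94 (24 arrays), 2 (block), 313 (weights), 7 (sex) and 1 (50 Mb left out). Without replicate 1 the count of 287 (197 above 0) was 176 with neqc, 130 (76 above 0) with 75th percentile scaling, 29 (27 above 0) from the ratio table, 186 with no filter, 551 with all 24 arrays, 102 with the block and 33 with all 12 arrays. The cause of these shifts was not tested, other than through fewer genes or arrays. Leaving out 1 array at a time gave 7 to 287 genes for the difference, 560 to 2716 and 379 to 2747 for the Nes-Cre and Wnt4 changes, 1 to 69 list members, 4 to 93 genes changed in the Wnt4 mutant only, and 83 to 690 genes without replicate 1, where 83 was reached without replicate 3 and 690 without Wt1 co/co replicate 3. With all 12 arrays 14 of the 287 had the opposite sign, among them 6 described genes, Slc34a1 (-1.27), Slc22a6 (-0.20), Slc27a2 (-0.21), Fxyd4 (-1.25), Fxyd2 (-1.26) and Crabp2 (-0.064). Under the settings run, no other described gene that was followed changed direction. Ly6c1 and Slc16a4 were not followed. Of the 33 genes, 24 stayed called with no background correction, 26 with quantile normalization within sets, and all 33 with the stricter filter, the 1.5-fold threshold, array weights and all 24 arrays. The median difference of all genes was -0.041, and -0.116 with 75th percentile scaling.

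Deviations of same-numbered arrays from their group means correlated at 0.020 to 0.076 in the Nes-Cre set and -0.215 to -0.132 in the Wnt4 set. With so few arrays these values cannot show whether same-numbered embryos were paired, and the main fit did not pair them. With the replicate block 4 genes stayed called. The number of arrays and signals near background limit what could be called.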
